A study of Mus musculus with 12 samples.

Results

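The genes described here encode the proteins of the cytosolic ribosome in mouse liver. They were taken by symbol from the annotation of the array: symbols that start with Rpl or Rps and a digit, plus Rplp0, Rplp1, Rplp2 and Rpsa, without the S6 kinase genes (Rps6k) and without symbols marked as pseudogenes (-ps). Only probe sets annotated to a single symbol were used, and of the probe sets of a gene the one with the highest mean over all arrays. This gave 63 of the 19938 genes measured: 30 genes of the large subunit, 21 of the small subunit, the 3 genes of the P-stalk, 7 paralogs and 2 genes whose products are not ribosomal proteins although their symbols fit the rule. The last 2 are Rps19bp1, which encodes a binding partner of RPS19, and Rps23rg1, which arose from a retroposed copy of Rps23. A further 20 ribosomal protein symbols, Rpl3, Rpl11, Rpl13a, Rps16 and Rps24 among them, occur only on probe sets that carry another symbol as well and are not members.

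RNA came from the livers of male C57BL/6N mice of 110 days, killed after a fast of 6 hours. One genotype (KI) carried the G609G knock-in on both alleles of Lmna in the whole body, where it alters lamin A splicing and models Hutchinson-Gilford progeria. The other (WT) was its wild-type counterpart, and both were bred from heterozygous parents. Feeding with control chow (CD) or methionine-restricted chow (MR) began at 7 weeks of age, in all groups as a mix of whole and crushed pellets. The 4 groups WT_CD, WT_MR, KI_CD and KI_MR hold 3 arrays each. Whether every array stands for its own animal is not stated, so the p-values measure the spread between samples, and 12 arrays limit the precision of every value.

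The ribosome translates messenger RNA into protein. Its small subunit reads the message, its large subunit joins the amino acids, and the P-stalk of the large subunit recruits the elongation factors. Almost all messages for ribosomal proteins begin with a 5′ terminal oligopyrimidine (TOP) stretch, a C followed by a run of C and T. Through it the kinase complex mTORC1, which responds to amino acids and insulin, and the RNA-binding protein LARP1 control translation and stability of these messages together. Liver is a tissue of high protein synthesis, and ribosomal protein messages are among its abundant ones.

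The arrays were on a common scale, with median intensities between 82 and 90 units. Hepatocyte markers were bright in every group, with sums of 5 measured markers from 56498 to 63333 units, as the tissue label says. KI_CD replicate 1 resembled its own group least, with a mean correlation of 0.9855 across genes, where the other arrays had 0.9887 to 0.9942. For the ribosomal protein genes another array stood apart. KI_MR replicate 1 held the highest value of 37 of the 63 genes, and its median deviation from the genes' own 12-array means was 0.26 (log2). The other arrays lay between -0.20 (WT_CD replicate 2) and 0.10 (WT_MR replicate 1). Medians over all 63 genes that rest on KI_MR replicate 1 are given with and without it. Medians over parts of the list, over probe sets and over other lists, and correlations within the list, are given with it only. Counts at an unadjusted p, of arrays that do not overlap and of genes above 0 in both diets were made with it only.

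Ribosomal protein messages were slightly more abundant on the restricted diet in both genotypes. In wild-type mice the median change over the 63 genes was 0.16 (log2, 1.11-fold), and 57 genes lay above 0. In knock-in mice the median was 0.14 (1.10-fold), again with 57 above 0. Over all genes the median was -0.004 in wild type, where 47.3% lay above 0, and -0.017 in knock-in, where 42.6% did. The 2 diet comparisons share no arrays, and 53 of the 63 genes (84.1%) were above 0 in both, against 23.2% of all genes. These are descriptions of the list, since the genes vary together and were not tested as a set.

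By array, the median deviations were -0.10, -0.20 and -0.06 in WT_CD, 0.10, -0.06 and 0.09 in WT_MR, -0.01, -0.04 and -0.05 in KI_CD, and 0.26, 0.04 and 0.03 in KI_MR. All 3 KI_MR arrays thus lay above all 3 KI_CD arrays. In wild type, WT_MR replicate 2 lay at the level of WT_CD replicate 3, and the groups touched. The SD within a group ranged from 0.02 to 0.127.

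**Figure D1:**
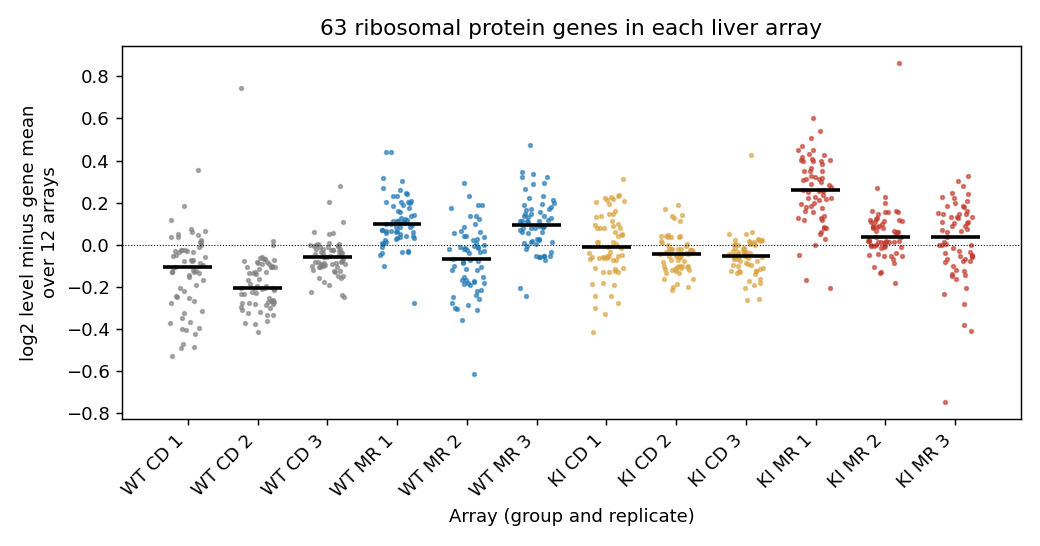
Level of the 63 ribosomal protein genes in each of 12 liver arrays, as log2 level minus the gene's own mean over the arrays (y axis); each point is a gene and each bar the median of an array. KI_MR replicate 1 is highest with a median of 0.26 and WT_CD replicate 2 lowest with -0.20.

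Without KI_MR replicate 1 the median change in knock-in mice was 0.08 with 44 of 63 genes above 0. Without KI_CD replicate 1 it was 0.16 with 59 above 0. The wild-type median went to 0.23 without WT_MR replicate 2, with 60 genes above 0. Other bright genes did not show this shift. Over the 1688 other genes with a mean log2 level above 10 the median change was -0.02 in wild type and -0.05 in knock-in, while the 42 ribosomal protein genes above that level had medians of 0.178 and 0.136.

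No single gene passed the test in either diet comparison alone. With limma and Benjamini-Hochberg adjustment over all 19938 genes, 0 of 63 passed in WT_MR against WT_CD, where 0.326% of all genes did, and 0 in KI_MR against KI_CD, where 0.176% did. The smallest adjusted p was 0.113 and 0.205, respectively. At an unadjusted p under 0.05, 18 genes were higher and 0 lower in wild type, against 4.64% of all genes higher and 3.55% lower. In knock-in mice 12 were higher and 0 lower, against 2.7% and 5.08%. The 3 arrays of the restricted diet lay above the 3 of the control diet for 24 genes in wild type (6.35% of all genes) and for 22 in knock-in (3.67%). The opposite order occurred for 0 of the 63 genes in either genotype, against 5.17% of all genes in wild type and 6.99% in knock-in.

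Since the direction was alike in both genotypes, the mean of the 2 diet comparisons was also fitted, a choice made after the results were seen. It had a median of 0.15 over the 63 genes, with 60 above 0, and a median of -0.011 over all genes. In this average 2 genes passed, Rps18 and Rpl23, both higher, against 0.607% of all genes higher. At an unadjusted p under 0.05, 28 were higher and 0 lower (4.78% of all genes higher and 6.09% lower). All 6 restricted arrays lay above all 6 control-diet arrays for 9 of the 63 genes: Rpl10a, Rpl23, Rpl32l, Rpl6, Rpl9, Rps15, Rps18, Rps2 and Rps3. Of all genes 0.401% showed this order. The reverse order was seen for 0 of the 63 and for 0.481% of all genes.

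Rps18 encodes a protein of the head of the small subunit. Its log2 levels were 11.86, 11.85 and 12.09 in WT_CD, 12.30, 12.24 and 12.29 in WT_MR, 12.11, 12.14 and 12.12 in KI_CD, and 12.47, 12.30 and 12.43 in KI_MR. Every restricted array lay above every control-diet array. The change was 0.34 ± 0.08 (SE) in wild type and 0.27 ± 0.08 in knock-in, and 0.31 ± 0.05 on average (limma adjusted p = 0.0216). The other 6 probe sets of Rps18 gave averages of 0.31 to 0.37.

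Rpl23 encodes a protein of the large subunit that, when free, also binds the p53 regulator MDM2. Its levels were 11.81, 11.77 and 11.89 in WT_CD, 12.12, 12.04 and 12.21 in WT_MR, 11.65, 11.90 and 11.88 in KI_CD, and 12.25, 12.04 and 12.16 in KI_MR. The groups of the 2 diets did not overlap in either genotype, and the lowest value was that of KI_CD replicate 1. The change was 0.30 ± 0.09 in wild type, 0.34 ± 0.09 in knock-in and 0.32 ± 0.06 on average (limma adjusted p = 0.0301). A second, dimmer probe set of Rpl23 gave an average of 0.21, and with the mean of both the call was lost (adjusted p = 0.0791).

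Neither call was stable over the arrays. With each array left out in turn, Rps18 lost its call in 7 of 12 fits and Rpl23 in 8, with changes over all alternatives of 0.29 to 0.37 and 0.26 to 0.37. Without KI_MR replicate 1, 0 of the 63 genes passed and the median of the average was 0.10.

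Rps3, whose product lies at the entry of the message channel, was at 10.73, 10.72 and 10.89 in WT_CD, 10.94, 11.16 and 11.05 in WT_MR, 10.92, 10.92 and 10.88 in KI_CD, and 11.23, 11.08 and 11.13 in KI_MR. The 2 diets did not overlap, and its average change of 0.25 ± 0.05 just missed the threshold (limma adjusted p = 0.0507). Rps9, another small-subunit gene, was at 10.32, 10.29 and 10.33 in WT_CD, 10.75, 10.55 and 10.68 in WT_MR, 10.58, 10.54 and 10.44 in KI_CD, and 10.97, 10.63 and 10.71 in KI_MR. Within each genotype the diets did not overlap (average 0.30 ± 0.06, adjusted p = 0.0528). The large-subunit gene Rpl8 had the largest average, 0.37 ± 0.09 (adjusted p = 0.0864), with levels of 10.36, 10.41 and 10.68 in WT_CD, 10.79, 10.61 and 11.07 in WT_MR, 10.59, 10.80 and 10.75 in KI_CD, and 11.23, 10.98 and 11.11 in KI_MR. Its groups overlapped in wild type and not in knock-in.

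**Figure D2:**
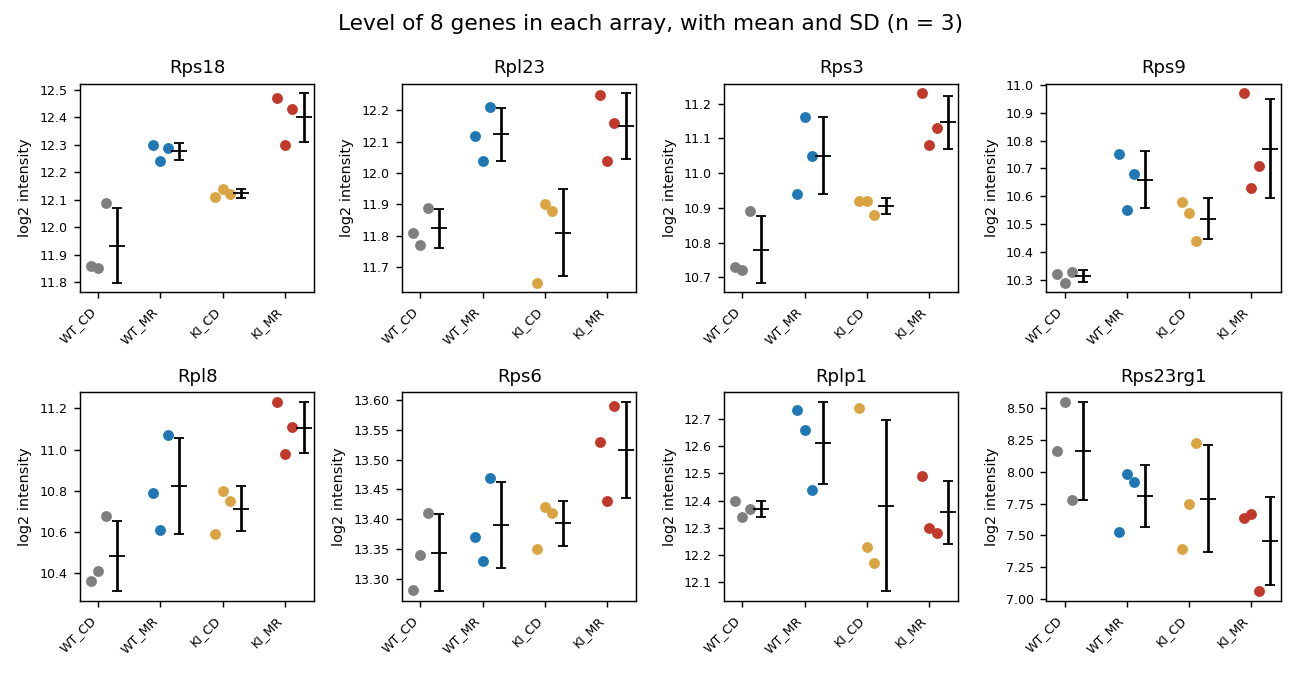
Log2 intensity of 8 genes in each array (points), with the mean and SD of each group of 3 arrays beside the points. In Rps18, Rpl23 and Rps3 every MR array lies above every CD array, whereas Rplp1 and Rps23rg1 overlap between the knock-in diets.

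Sequences around the annotated transcription starts of these genes are shown because the TOP stretch that is the hallmark of the family lies at this place. Each runs from 50 bases before the start to 20 from it, on the transcribed strand, from RefSeq (GRCm38.p6). Capitals mark a stretch of at least 6 pyrimidines that starts with a C and begins within 10 bases of the annotated start.
Rps18 (chr17:33955646-33955715, minus strand): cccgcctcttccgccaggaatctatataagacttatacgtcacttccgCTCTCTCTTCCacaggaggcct
Rps9 (chr7:3703991-3704060, plus strand): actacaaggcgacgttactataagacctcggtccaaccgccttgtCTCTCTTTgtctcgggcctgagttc
Rps6 (chr4:86857348-86857417, minus strand): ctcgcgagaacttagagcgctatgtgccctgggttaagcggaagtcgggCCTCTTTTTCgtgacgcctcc
Rpl23 (chr11:97782420-97782489, minus strand): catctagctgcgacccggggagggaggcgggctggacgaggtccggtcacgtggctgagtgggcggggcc
Rps3 (chr7:99483690-99483759, minus strand): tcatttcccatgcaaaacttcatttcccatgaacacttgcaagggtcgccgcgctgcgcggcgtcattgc

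Rps18, Rps9 and Rps6 hold such a stretch at the annotated start, and Rpl23 and Rps3 do not, which says only that these letters are not at this annotated place. Promoter windows were found for 51 of the 63 genes. A stretch was present in 18 of 50 windows of subunit and stalk genes (36.0%) and in 17.8% of all 32851 windows. The letters CCGGAAG, a core of ETS family sites, were searched on both strands of the 300-base window (250 before to 50 after the start). They occurred in 36.0% of the subunit and stalk windows and in 8.86% of all. The shares were 14.0% and 4.05% for ATGGCGG, a core of YY1 sites, and 10% and 13.6% for TATAAA, the TATA box; matches of different motifs may overlap. The 18 genes counted with a pyrimidine stretch had a median average diet change of 0.14 and the 25 counted without one 0.19, with every gene of both sets above 0. A stretch that begins earlier is not counted, such as the run of C and T across the annotated start of Rpl7a. The shares and sets therefore hold for this rule only and do not show which genes have a TOP stretch.

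By role, the large- and small-subunit genes lay on one side. In the average over both genotypes all 30 large-subunit genes were above 0 (median 0.17, range 0.01 to 0.37), as were all 21 small-subunit genes (median 0.22, range 0.03 to 0.33). Core genes of the large subunit were at 0.29 (Rpl5, which with RPL11 and 5S RNA forms a particle that binds MDM2), 0.22 (Rpl6), 0.19 (Rpl22), 0.14 (Rpl4) and 0.12 (Rpl10). In the small subunit, Rps19, a gene mutated in Diamond-Blackfan anaemia, was at 0.26, Rps14 at 0.11 and Rps2 at 0.08. None of these 8 passed by limma. A second, dimmer probe set of Rps14 gave an average of 0.26. Rpl21, with Rps6 and Rpl10 one of the brightest members, was at 0.10. Its other probe sets gave averages of 0.16 to 0.21.

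Rps6 encodes the substrate of the S6 kinases downstream of mTORC1. Its levels were 13.28, 13.34 and 13.41 in WT_CD, 13.37, 13.33 and 13.47 in WT_MR, 13.35, 13.42 and 13.41 in KI_CD, and 13.53, 13.43 and 13.59 in KI_MR. The diets overlapped in wild type and just missed each other in knock-in. The average change was 0.09 ± 0.05 (limma adjusted p = 0.598).

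The P-stalk genes had average changes of 0.10 to 0.11. Rplp0, often used as a reference gene, was at 0.18 in wild type and 0.03 in knock-in, Rplp1 at 0.24 and -0.02, and Rplp2 at 0.12 and 0.08. Rplp2 was at -0.04 in knock-in without KI_MR replicate 1 and at -0.01 in wild type without WT_MR replicate 1. The levels of Rplp1 were 12.40, 12.34 and 12.37 in WT_CD, 12.73, 12.66 and 12.44 in WT_MR, 12.74, 12.23 and 12.17 in KI_CD, and 12.49, 12.30 and 12.28 in KI_MR. KI_CD replicate 1 was the highest of all 12 arrays, and without it the knock-in change was 0.16. Rpsa, which encodes the laminin-binding protein of the small subunit, was at 0.39 in wild type and 0.03 in knock-in. Its knock-in value turned to -0.17 without KI_MR replicate 1. None of these passed by limma in either genotype, and the difference between the genotypes did not pass for Rpsa (-0.36 ± 0.26) or Rplp1 (-0.26 ± 0.19), with adjusted p = 1.0 each.

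The paralogs did not share the shift as a group, with 5 of 7 above 0 on average and a median of 0.04. Rpl32l was at 0.21, with all restricted arrays above all control-diet arrays, Rpl3l, a muscle-type copy of Rpl3, at 0.10, Rps27l, a p53 target, at 0.04, Rpl39l, a copy of Rpl39 known from testis, at 0.08 and Rpl10l, another testis gene, at 0.02. Rpl7l1 was at -0.12 on average (-0.14 in knock-in and -0.09 in wild type) and Rps4l at -0.03 (0.03 in knock-in and -0.09 in wild type). Several of these are dim: Rpl39l ranged from 4.39 to 4.70 and Rpl3l from 5.0 to 6.07, where the lower quartile of gene levels was 5.49 to 5.67. The only Rpl3l value above 5.39 was that of KI_MR replicate 2, without which its average change was -0.08.

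Of the 2 genes that encode no ribosomal protein, 1 lay above 0. Rps19bp1 was at 0.08 on average. Rps23rg1 had the widest spread of all 63, with levels of 8.16, 8.55 and 7.78 in WT_CD, 7.53, 7.98 and 7.92 in WT_MR, 7.39, 7.75 and 8.23 in KI_CD, and 7.64, 7.67 and 7.06 in KI_MR. Every comparison of groups overlapped, and its average diet change of -0.34 ± 0.18 was the lowest of the 63 genes without passing (limma adjusted p = 0.555).

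**Figure D3:**
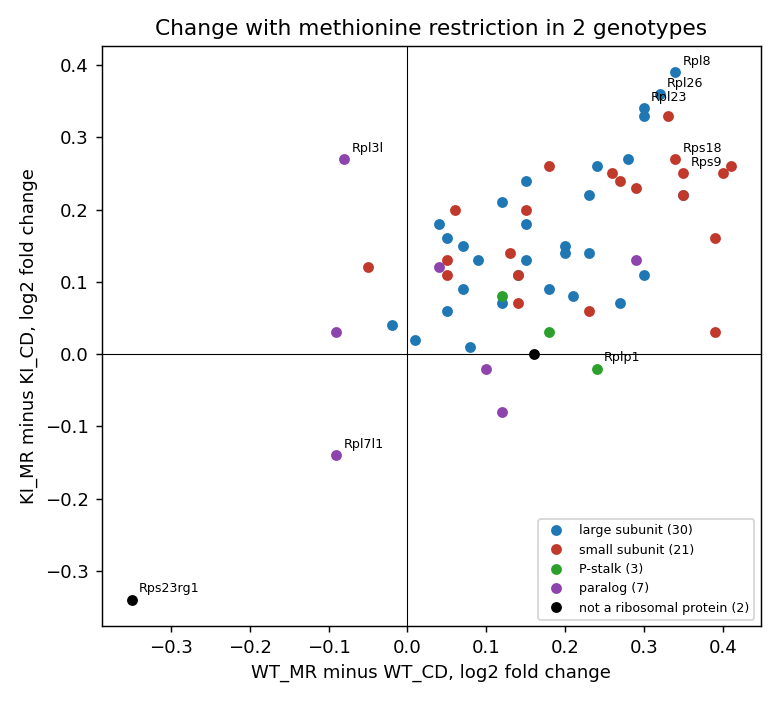
Log2 fold change with methionine restriction of the 63 genes in wild type (x axis) and in knock-in (y axis); each point is a gene, coloured by role. Of the 63 genes, 53 lie above 0 on both axes, and Rps23rg1 lies lowest on both, at -0.35 and -0.34.

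On the control diet the ribosomal protein genes were also mostly above 0 in knock-in mice. In KI_CD against WT_CD the median over the 63 genes was 0.09 (1.07-fold) with 56 above 0, about that of the diet in knock-in mice without KI_MR replicate 1 (0.08 with 44 above 0). Here the median of all genes was -0.025 and 43.4% lay above 0. The 1688 other genes with a mean log2 level above 10 had a median of 0.021 with 55.2% above 0. The 42 ribosomal protein genes above that level had 0.096. Of the related lists described below, translation factors had a median of 0.11 and ribosome biogenesis genes 0.10. Other TOP messages were at 0.04, regulators of mTORC1 at 0.03 and mitochondrial ribosomal protein genes at 0.05. By limma 0 of 63 genes passed (0.0802% of all genes did), and at an unadjusted p under 0.05, 6 were higher and 0 lower (6.48% of all genes higher and 4.73% lower). The arrays did not overlap for 10 genes that were higher in KI_CD (8.57% of all genes) and for 1 that was lower, Rpl39l (-0.12; 10.4% of all genes lower).

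The genes with the smallest p were Rps29, which encodes a zinc finger protein of the small subunit, Rps28 and Rps18. Rps29 was at 9.49, 9.58 and 9.87 in WT_CD and 9.98, 10.03 and 9.95 in KI_CD, all 3 knock-in arrays above the wild-type ones (0.34 ± 0.12, limma adjusted p = 0.348). Rps28 was at 10.10, 10.36 and 10.54 against 10.59, 10.74 and 10.58 (0.30 ± 0.12). Rps18 was at 0.19, Rps23rg1 at -0.37 and Rpl3l at -0.14. Without WT_CD replicate 2, the array with the lowest ribosomal protein values, the median of the list was 0.05 with 49 above 0.

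On the restricted diet the genotype difference rested on single arrays. KI_MR against WT_MR had a median of 0.09 with 48 of 63 above 0, and it was 0.01 with 33 above 0 without KI_MR replicate 1 and 0.03 with 33 above 0 without WT_MR replicate 2. By limma 0 of 63 passed (0.471% of all genes did), and 2 were higher and 0 lower at an unadjusted p under 0.05 (6.55% of all genes higher and 7.59% lower). Those 2 were Rpl24, which links the subunits and was at 10.26, 9.86 and 10.31 in WT_MR and 10.57, 10.43 and 10.36 in KI_MR (0.31 ± 0.13, adjusted p = 0.308), and Rpl8 (0.29 ± 0.13). Rps4l (0.23), Rplp1 (-0.25), Rps23rg1 (-0.36) and Rpl10l (-0.13) came next in their directions. The value of Rps4l is that of its brighter probe set. On the control diet its 2 probe sets differed in sign between the genotypes, at 0.12 and -0.13 for KI_CD against WT_CD. KI_MR did not overlap WT_MR for 5 genes that were higher (7.5% of all genes) and 0 that were lower (8.82%).

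Averaged over both diets the knock-in effect had a median of 0.08 with 52 above 0 (all genes -0.037), and 0 of 63 passed by limma, where 2.81% of all genes did. The median was 0.06 with 46 above 0 without KI_MR replicate 1, and 0.05 with 45 above 0 without WT_MR replicate 2. At an unadjusted p under 0.05, 8 were higher and 0 lower (10.2% of all genes higher and 11.8% lower). All 6 knock-in arrays lay above all 6 wild-type arrays for 0 of the 63 genes and for 1.39% of all genes. Rpl24 (0.31), Rps29 (0.26) and Rpl8 (0.26) had the smallest p of the higher genes, and Rps23rg1 (-0.36), Rpl39l (-0.08) and Rplp1 (-0.12) of the lower ones. Rps18 was at 0.16 here.

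A difference in diet effect between the genotypes was not detectable for any of the 63 genes with 3 arrays a group. The interaction had a median of -0.02 with 27 above 0 and 36 below, and 0 of 63 passed by limma (0% of all genes did), with 0 at an unadjusted p under 0.05 (1.09% of all genes higher and 3.04% lower). This split depended on single arrays. The median was -0.10 with 14 above 0 without KI_MR replicate 1, and -0.07 with 13 above 0 without WT_MR replicate 2. It was 0.03 with 36 above 0 without KI_MR replicate 3, and 0.02 with 35 above 0 without WT_MR replicate 3. Besides Rpsa and Rplp1, the genes with the smallest p included Rps21 (-0.23 ± 0.16) and Rpl10l (-0.20 ± 0.14) below 0 and Rpl3l (0.35 ± 0.33) above 0, which was -0.01 without KI_MR replicate 2. Rpl30 (0.09) and Rpl39l (0.09) followed Rpl3l among the genes above 0 in order of p.

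The ribosomal protein genes also varied together within groups. Over the 1953 pairs, the median correlation of their deviations from the group means was 0.40 across the 12 arrays, against 0.024 for pairs of all genes. It is given as a description, since all genes of an array share its RNA, its labelling and its scale. KI_MR replicate 1, with a median deviation of 0.26 against 0.04 and 0.03 in its group, is part of it. The correlation was not computed without that array, nor for other genes of like brightness. The genes that correlated least with the rest were Rpl3l (-0.34), Rpl30 (-0.28), Rps23rg1 (-0.27) and Rpl39l (-0.21).

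Other genes of translation were compared in the same fits. Of 16 other TOP messages listed, such as those for elongation factors and NPM1, 14 were measured. They had a median of 0.12 in each diet comparison, with 13 above 0 in wild type and 12 in knock-in. None of the 14 passed, where 0.326% of all genes did in wild type and 0.176% in knock-in. Fau, which encodes a further small-subunit protein fused to a ubiquitin-like one, was at 0.12 in wild type and 0.04 in knock-in. The 29 translation factors measured had medians of 0.08 in wild type and 0.00 in knock-in. Of them Eif2s2, which encodes a subunit of the initiation factor that brings the first transfer RNA, rose on average (0.46 ± 0.09, limma adjusted p = 0.0419). It was the only 1 of the 29 to pass, where 0.607% of all genes passed as higher.

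Ribosome biogenesis genes had medians of 0.11 in wild type, with 55 of 75 above 0, and 0.05 in knock-in, with 46 above 0. Averaged over the genotypes 4 of the 75 rose and 0 fell, where 0.607% of all genes passed as higher. They were Taf1d (0.35), a factor of RNA polymerase I, and Nop14 (0.25), a factor of small-subunit assembly. Also among them were Sbds (0.26), which acts in maturation of the large subunit, and Gnl3 (0.34), which encodes nucleostemin. After centring of each array on its median, or without KI_MR replicate 1, these 4 and Eif2s2 missed the threshold. For the average knock-in effect 7 of the 75 biogenesis genes rose and 0 fell, where 2.81% of all genes passed in either direction. Ltv1, an assembly factor of the small subunit, was at 0.41 (limma adjusted p = 0.00827) and passed under all 18 alternatives. The other 6, Ubtf, Taf1b, Gnl2, Utp15, Wdr36 and Sdad1, were at 0.30 to 0.51, and each missed the threshold in 5 to 9 of the fits that leave out 1 array.

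Of the regulators of mTORC1 and of TOP messages, 0 of 23 passed by limma in either diet comparison or on average. Of all genes 0.326% passed in wild type, 0.176% in knock-in and 0.607% as higher on average. The median was 0.01 in both comparisons, with members on both sides of 0. On average, 4 were higher at an unadjusted p under 0.05 and 1 lower (4.78% of all genes higher and 6.09% lower). The 4 were Larp1 (0.32), Eif4ebp1 (0.21), which encodes a translation repressor that mTORC1 phosphorylates, and Sesn1 (0.26) and Sesn2 (0.37), which encode sestrins, inhibitors of mTORC1. The lower one was the related Sesn3 at -0.41 (adjusted p = 0.0937), with -0.43 in wild type and -0.40 in knock-in. Larp1, Eif4ebp1 and Sesn2 changed by similar amounts in both genotypes. Sesn1 was at 0.03 in wild type and 0.5 in knock-in, so its average came mainly from knock-in. Mtor itself was at 0.34 in wild type and -0.32 in knock-in. Neither difference between the genotypes passed by limma. Apart from Mtor, these genes were named for their p.

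The mitochondrial ribosome is a separate particle that translates the messages of mitochondrial DNA. The 77 genes for its proteins had a median of 0.05 in wild type on the restricted diet, with 48 above 0, and -0.11 in knock-in, with 13 above 0. None of the 77 passed by limma in either comparison, where 0.326% of all genes did in wild type and 0.176% in knock-in. At an unadjusted p under 0.05, 4 were higher and 0 lower in wild type (4.64% and 3.55% of all genes), and 0 higher and 1 lower in knock-in (2.7% and 5.08%). These counts are near those shares or below them.

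**Figure D4:**
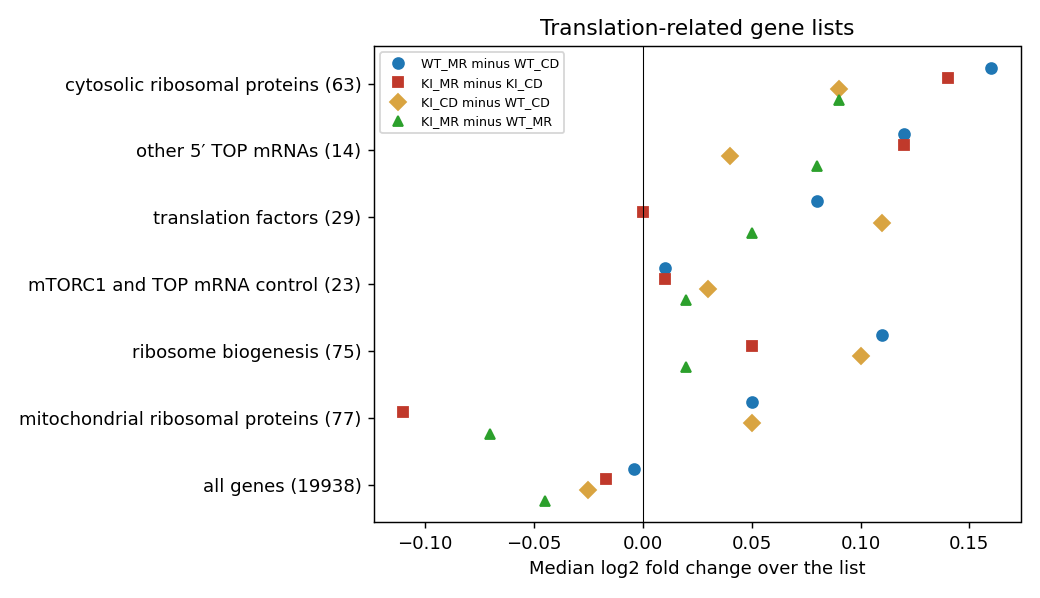
Median log2 fold change (x axis) of 6 translation-related gene lists and of all genes in 4 comparisons, with the number of measured genes in brackets. Cytosolic ribosomal protein genes have the highest medians for both diet comparisons, 0.16 and 0.14, and mitochondrial ones the lowest in knock-in, -0.11.

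Markers of other liver cells were set beside the diet shift, since in a bulk sample a change in the share of a cell type and a change of RNA per cell cannot be told apart. Summed over 7 measured lymphocyte markers the intensity was 707 to 873 units in WT_CD, 781 to 907 in WT_MR, 693 to 830 in KI_CD and 698 to 814 in KI_MR. The sums of 10 macrophage markers were 8320 to 10115, 6439 to 11686, 6277 to 8071 and 6915 to 7980 in the same order. Both overlapped between the diets in each genotype. Other markers stood apart between the diets, each in a single genotype only. Of all genes, 6.35% were apart as higher and 5.17% as lower in wild type, and 3.67% and 6.99% in knock-in. The 5 hepatocyte markers summed to 62378 to 63333 units in KI_CD and 60562 to 61448 in KI_MR, which did not overlap, and to 60019 to 61357 in WT_CD and 56498 to 60773 in WT_MR, which did. Alas2, the 1 erythroid marker measured, was at 1051 to 1263 units in WT_CD and 432 to 636 in WT_MR, which did not overlap, and at 415 to 597 in KI_CD and 199 to 570 in KI_MR, which did. The 5 stellate cell markers summed to 1636 to 1906 units in WT_CD and 1355 to 1571 in WT_MR, apart as well, and to 1382 to 3074 in KI_CD and 1413 to 2494 in KI_MR. The 4 markers of dividing cells summed to 192 to 480 units in KI_CD and 180 to 187 in KI_MR, apart, and to 219 to 244 in WT_CD and 220 to 231 in WT_MR. The sums of the endothelial, cholangiocyte and neutrophil markers overlapped between the diets in each genotype. The part of these cells in the ribosomal protein values was not tested.

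Ribosomal protein genes have many processed pseudogenes with nearly the same sequence, so the probe sets of a gene are not independent and may record several loci. The 63 genes had 219 probe sets, and 39 genes had more than 1. Over all 219 the average diet change had a median of 0.17 with 216 above 0. For the 20 symbols left out because they share probe sets with another symbol, the brightest probe set of each (18 in all) gave a median of 0.18 with 18 above 0.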

How the data were processed

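Liver RNA of 12 samples was labelled with biotin and hybridised to 1-colour arrays, per the labels. The authors deposited linear intensity values per probe set, whole numbers from 10 to 20042; their background correction, summarisation and scaling are not given in the sources used here. They were tested as log2 values, without rescaling. Of 35512 probe sets, 21789 carried 1 symbol in the platform annotation, 1621 several and 12102 none. All 63 genes matched the RefSeq table by Entrez identifier, with the same symbols.

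One model with 4 group means was fitted to all 12 arrays and 19938 genes with limma 3.58.1 (R 4.3.3), with 8 residual and 3.14 prior degrees of freedom. Two-sided p-values were adjusted by Benjamini-Hochberg in each comparison over the whole table, and called below 0.05. An SE is that of the fit, and n = 3 arrays per group. The fit was tested on simulated data. Tables were made with pandas 2.3.3 and numpy 2.4.6 in Python 3.11.15, and figures with matplotlib 3.10.9.

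The members, lists and tests were chosen with earlier results of these data known. Named genes are, per comparison, those past the threshold (at most 8) and, where fewer than 4 passed, the 3 each way with the smallest p, the 3 of widest spread, the 3 brightest and 3 dimmest, and genes given by role. Rpl6, the other genes apart in all 12 arrays, Rpl30 in the correlations and the genes named from the related lists were chosen after their values were seen. The alternatives tried were a filter on the dimmest 25% of genes, median centring, quantile normalization, the mean of a gene's probe sets, a prior with trend and robust estimation, a fit of the compared groups alone, replicate number as a block, and each array left out.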

Additional observations from a re-analysis of the deposited data

How the results depend on the processing

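For the 4 comparisons of groups and the interaction, 0 of the 63 genes passed by limma under every alternative run, and the medians moved by less than the spread between replicates (0.087, log2). That spread is near the size of the medians themselves, so a move below it does not show that a median held. The median of KI_MR against WT_MR went from 0.09 to 0.01 within it. With single arrays left out, the median ranged from 0.05 to 0.12 in KI_CD against WT_CD, from 0.08 to 0.18 in KI_MR against KI_CD, from 0.12 to 0.23 in WT_MR against WT_CD, from 0.01 to 0.13 in KI_MR against WT_MR and from -0.10 to 0.03 for the interaction. The average diet effect called 2 genes, but 9 after quantile normalization, 1 after median centring, 4 with replicate number as a block, and 0 to 3 with single arrays left out (median 0.10 to 0.19). The adjusted p of Rps18 ranged from 0.00764 to 0.0697 and that of Rpl23 from 0.00764 to 0.0906 over 18 alternatives. Rps18 lost its call without KI_CD replicate 2 or 3, KI_MR replicate 1 or 3, WT_CD replicate 1 or 2, or WT_MR replicate 1. Rpl23 lost it without KI_CD replicate 3, KI_MR replicate 1 or 3, any WT_CD replicate, or WT_MR replicate 1 or 3. The average genotype effect called 0 genes, or 0 to 2 with single arrays left out (2 without WT_MR replicate 3). The cause of these changes was not tested. The labels do not say what a replicate number marks. Same-numbered arrays of different groups correlated at -0.059 to 0.244 in their deviations from the group means, with 16 of 18 pairs above 0 and 9 over 0.1, against 4 of 36 pairs of different numbers over 0.1. In 11 of 12 arrays the mean correlation was highest with the own number. This is a hint of a shared number effect from the data, not the design. The labels name no pairing or batch, so the main fit held no block, and a cut at 0.1 does not decide whether there is one. The replicate block changed no call of the single comparisons, and raised those of the average diet effect from 2 to 4.

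Signs turned for several values, none of them called, and the cause was not tested. In knock-in, the diet change of Rplp1 (-0.02) was 0.07 after quantile normalization, 0.00 after median centring and -0.13 to 0.16 with single arrays left out, turning without KI_CD replicate 1 (0.16), KI_MR replicate 2 (0.00) or KI_MR replicate 3 (0.02). That of Rplp0 (0.03) ranged from -0.06 to 0.11 with single arrays left out, and was -0.01 without KI_CD replicate 2, -0.02 without KI_CD replicate 3 and -0.06 without KI_MR replicate 1. That of Rpsa (0.03) was -0.01 with the mean of its probe sets and -0.17 to 0.19 with single arrays left out, -0.10 without KI_CD replicate 3. That of Rplp2 ranged from -0.04 (without KI_MR replicate 1) to 0.17, and in wild type from -0.01 (without WT_MR replicate 1) to 0.24. In wild type Rps4l ranged from -0.18 to 0.03 (0.03 without WT_MR replicate 2) and Rpl7l1 from -0.15 to 0.00 (0.00 without WT_CD replicate 3). On average over genotypes Rps4l ranged from -0.08 to 0.03, turning without KI_CD replicate 1 (0.00) or WT_MR replicate 2, Rpl3l (0.10) from -0.08 (without KI_MR replicate 2) to 0.18, and Rpl10l from -0.02 to 0.08, turning without KI_CD replicate 1 (-0.01), WT_CD replicate 1 (-0.00), WT_MR replicate 1 (-0.00) or WT_MR replicate 3. The interaction of Rpl3l (0.35) ranged from -0.01 (without KI_MR replicate 2) to 0.53.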
